A study of Homo sapiens with 16 samples.

Results

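This section describes 10 genes, the keratins KRT7, KRT8, KRT18, KRT19 and KRT23 and the liver progenitor and surface markers SOX9, CD24, PROM1, CD44 and EPCAM, out of 26258 genes measured by RNA-seq in human hepatocellular carcinoma (HCC) cells. The genes were chosen by name, as keratins and progenitor markers, at a time when earlier results of these data were known, and all 10 were in the deposited table. The cells were Huh7 and Hep3B, established HCC lines that are sensitive to the kinase inhibitor Sorafenib, and their resistant derivatives. Huh7-IR and Hep3B-IR had been raised in increasing Sorafenib and Huh7-CR and Hep3B-CR in a constantly high concentration, and the labels give 7 µM Sorafenib for all 4 resistant lines. Parental cells and cells labelled DMSO, the solvent of the drug, are both labelled untreated. Each of the 8 groups had 2 libraries. The sources used here do not say whether a resistant line is a clone or a pool. The methods call the replicates biological without saying whether they were separate cultures, so the p-values measure only the spread between these libraries. The drug was given only to the resistant lines, so its presence and the resistant state cannot be told apart.

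Keratins are the intermediate filament proteins of epithelia, and each filament is built from pairs of a basic and an acidic keratin. Hepatocytes carry almost only KRT8, which is basic, and KRT18, its acidic partner. Bile duct cells and the ductular progenitor cells of injured liver add the basic KRT7 and the acidic KRT19, and KRT23 is an acidic keratin of injured and neoplastic liver. SOX9 is a transcription factor of ductal and progenitor cells. CD24, PROM1 (CD133), CD44 and EPCAM are cell surface proteins that are used to sort progenitor-like and tumor-initiating liver cells, and CD44 is the receptor of the matrix sugar hyaluronan.

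On GRCh37, the build of the files, the GENCODE annotation places KRT7 at chr12:52626304-52645970 (plus strand), KRT8 at chr12:53290971-53343738 (minus) and KRT18 at chr12:53342655-53346690 (plus), so that the ends of the last 2 overlap. KRT19 lies at chr17:39679869-39684560 (minus), KRT23 at chr17:39078952-39093898 (minus) and SOX9 at chr17:70117161-70122557 (plus). PROM1 lies at chr4:15964699-16086001 (minus), CD44 at chr11:35160429-35253949 (plus) and EPCAM at chr2:47572297-47614740 (plus). The annotation on this build holds no CD24 gene, only pseudogenes, so CD24 has no position here. The annotation names 51 pseudogenes of KRT8, 68 of KRT18, 5 of KRT19 and 4 of CD24. The authors kept reads with a single genomic hit, so reads that also matched such a copy were not counted. The levels of KRT8, KRT18 and KRT19 are uncertain to that extent. For CD24 the sources used here do not show where the counted reads aligned, so its levels and calls are less certain still.

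RefSeq promoter windows on GRCh38.p14 were at hand for 4 of the 10 genes, with 4 starts for PROM1, 3 for CD24 and 1 each for CD44 and KRT8. KRT7, KRT18, KRT19, KRT23, SOX9 and EPCAM had no entry. The 250 bases before the start are shown for CD44 and for the most upstream PROM1 start, because these are the genes with an entry that were higher in both resistant Huh7 lines. CD44 is on the plus strand at chr11:35138921-35139170 and PROM1 on the minus strand at chr4:16084024-16084273, both written 5′ to 3′. Capitals mark matches, on either strand, to any of 5 short motifs, which are TATAAA, known as the TATA box, then CCAAT, then GGGCGG, known as the GC box, then TGANTCA, bound by AP-1, and ACGTG, the core bound by hypoxia-inducible factors.
CD44: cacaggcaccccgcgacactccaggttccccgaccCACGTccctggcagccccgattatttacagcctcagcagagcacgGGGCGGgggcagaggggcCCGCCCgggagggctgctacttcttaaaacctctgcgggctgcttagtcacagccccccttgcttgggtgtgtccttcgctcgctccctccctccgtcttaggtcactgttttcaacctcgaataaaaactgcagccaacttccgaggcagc
PROM1: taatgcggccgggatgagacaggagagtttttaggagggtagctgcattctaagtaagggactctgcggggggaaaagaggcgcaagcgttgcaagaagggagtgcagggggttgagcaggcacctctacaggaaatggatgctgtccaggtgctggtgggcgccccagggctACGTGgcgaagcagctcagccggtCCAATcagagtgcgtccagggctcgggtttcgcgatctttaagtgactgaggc

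The CD44 window held 2 GC boxes and 1 ACGTG, and the PROM1 window held 1 CCAAT and 1 ACGTG. Of all 35116 windows of the same length, 10.7% held the TATA box, 32% the CCAAT motif, 42.6% the GC box, 6.57% the AP-1 motif and 18.5% the hypoxia core. Of the other PROM1 windows, the next held 1 ACGTG, the third 1 GC box and the last 1 AP-1 site. The KRT8 window held none of the 5 motifs. These are matches of letters and not binding sites, and which PROM1 start the cells used was not measured.

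The libraries held 46613302 to 76860251 reads in genes, and replicates correlated across genes with r between 0.971 (Huh7-IR) and 0.995 (Hep3B DMSO). Levels are given as CPM, the reads of a gene scaled to equal library totals, and differences as log2(CPM + 1), which understates the change of genes near 0. A gene was called when the adjusted p of limma was under 0.05 and the difference at least 0.58 on the log2 scale. All 10 genes passed the filter on low values with 15019 genes in all. The labelled cell type fitted its markers in the parental cells, with albumin (ALB) at 3710 and 3629 CPM in Huh7 and 12152 and 13348 CPM in Hep3B. In Huh7-IR ALB was at 60.6 and 261 CPM, below the parental cells and unequal between the 2 libraries. It was also below parental cells in Huh7-CR (1147 and 2305 CPM), Hep3B-IR (1682 and 5526) and Hep3B-CR (655 and 753). DMSO cells lay above parental cells, at 9739 and 13244 CPM in Huh7 and 18745 and 19702 in Hep3B.

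Against parental cells, 6 of the 10 genes were called in Huh7-IR and 4 in Huh7-CR. For Hep3B the IR line had 2 and the CR line 3. KRT23 was lower in all 4 resistant lines. PROM1, KRT7 and CD44 were higher in both resistant Huh7 lines, PROM1 also in Hep3B-IR and KRT7 also in Hep3B-CR. KRT8 and KRT18 were lower in Huh7-IR, and CD24 was lower in Hep3B-CR. KRT19, SOX9 and EPCAM were called in none of the 4 comparisons. The IR and CR comparisons of a line share its parental libraries and are not independent of each other.

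**Figure D1:**
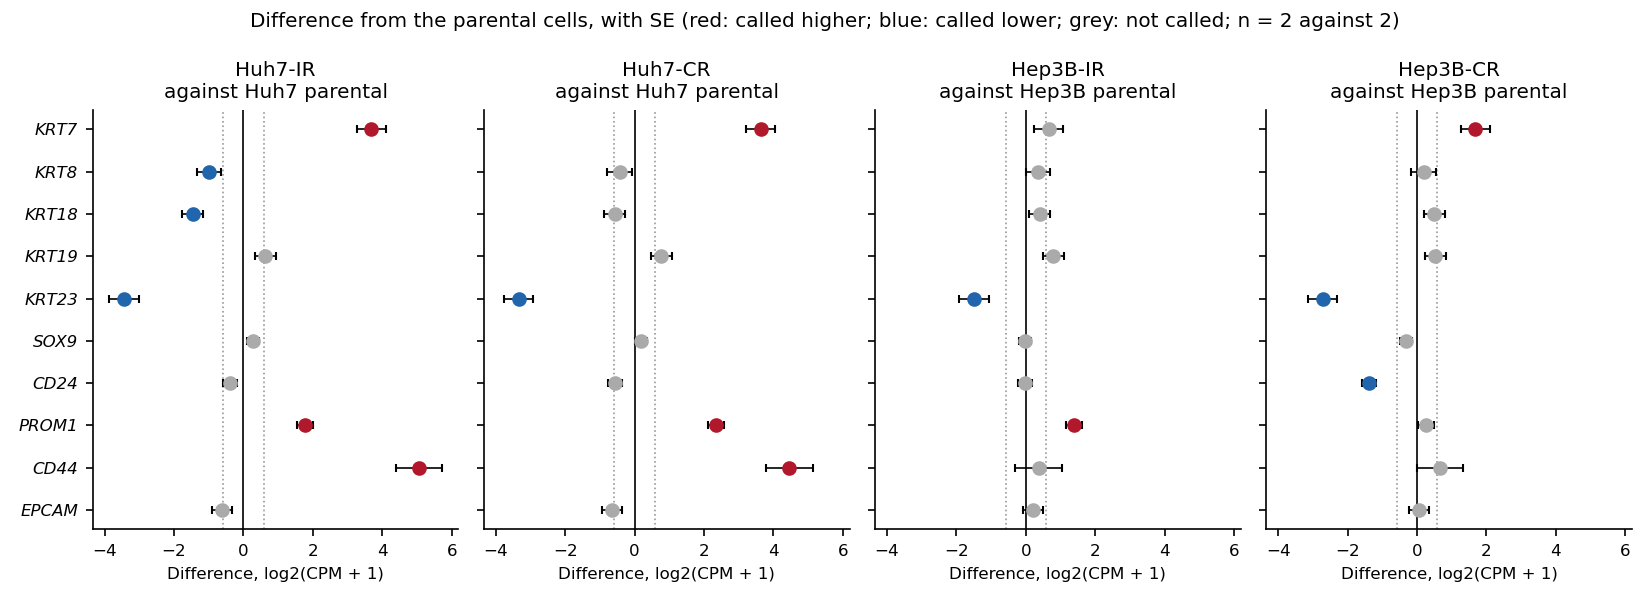
Difference of each gene from the parental cells on the log2(CPM + 1) scale, with the standard error, in the 4 resistant lines (2 libraries against 2). Red points were called higher, blue points lower and grey points were not called, and dotted lines mark 0.58. KRT23 lies left of the lower line in every panel, and the points of SOX9 lie between the lines in every panel.

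Calls were frequent in these cells, and the counts stand against that background. In Huh7-IR 3 of the 10 genes were called higher and 3 lower, where 31.1% of all genes tested were called higher and 17.8% lower. In Huh7-CR 3 were higher and 1 lower, against 20.9% and 13.6% of all genes. Hep3B-IR had 1 higher and 1 lower, against 15.7% and 11.4%. Hep3B-CR had 1 higher and 2 lower, against 20.0% and 12.3%. The median difference of the 10 genes was -0.07 for Huh7-IR and -0.12 for the CR line of Huh7, and 0.36 and 0.23 for the same lines of Hep3B. That of all genes was 0.19, 0.07, 0.06 and 0.11. With CPM as deposited, 63.6%, 60.6%, 57.9% and 61.9% of the genes called in these comparisons were higher, and after quantile normalization 49.8%, 49.3%, 47.7% and 49.2%. Fewer cells with a transcript and less of it in each cell cannot be told apart in these bulk libraries.

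**Figure D2:**
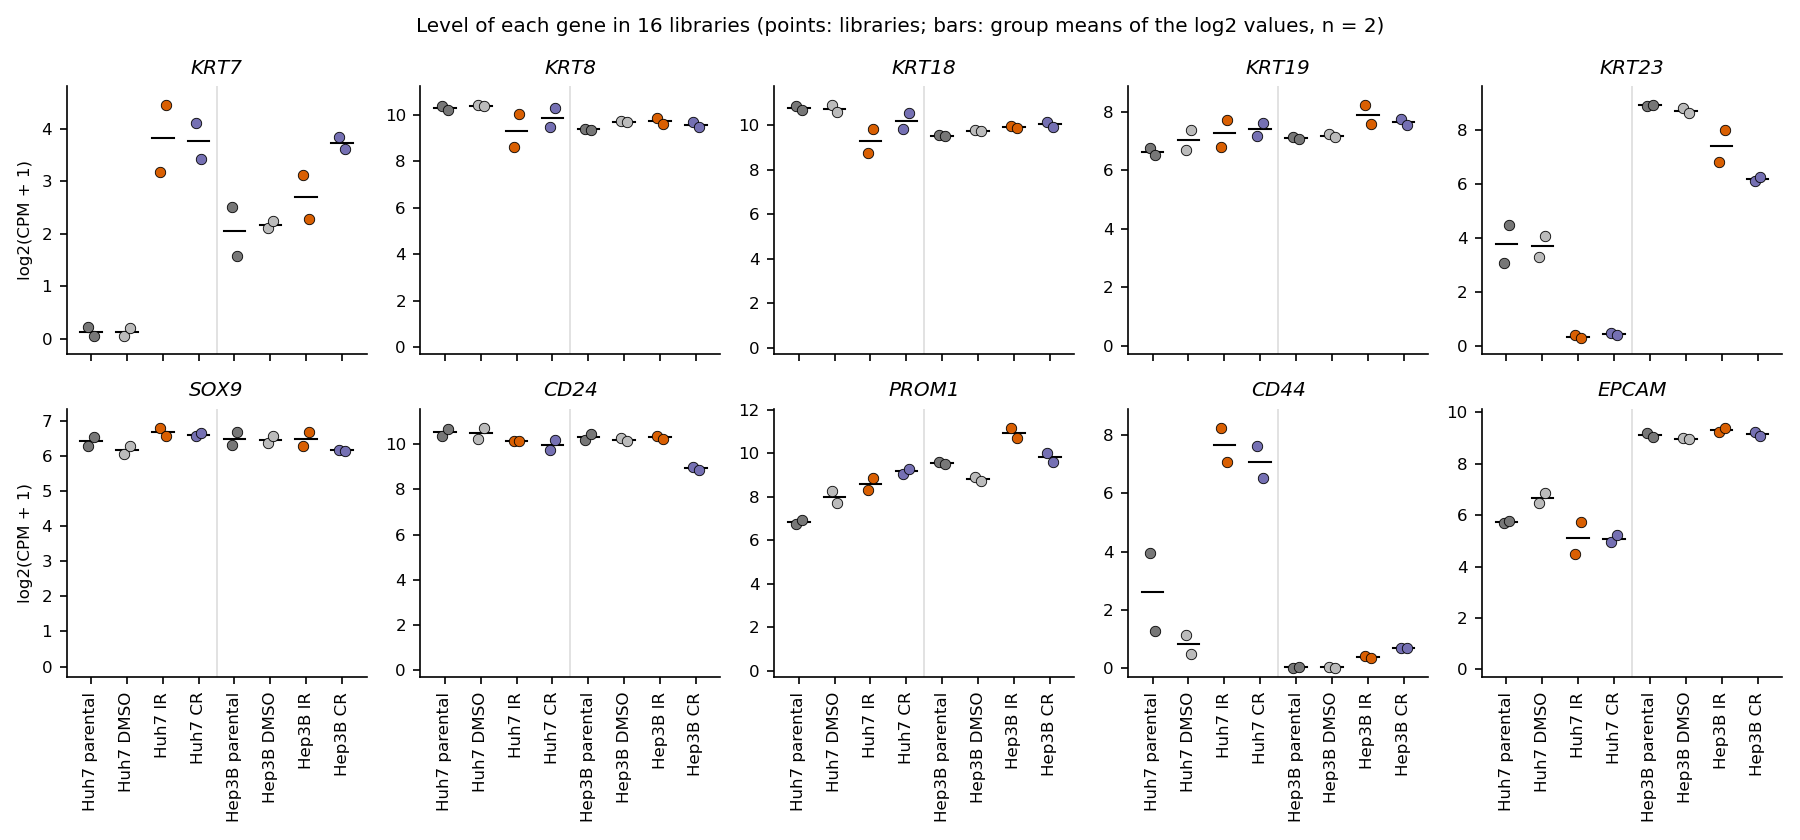
Level of each gene as log2(CPM + 1) in the 16 libraries, with 1 point for each library and a bar at the mean of the 2 log2 values of a group. Parental cells are dark grey, DMSO cells light grey, IR lines orange and CR lines purple, with Huh7 left and Hep3B right of the vertical line. KRT7, KRT23 and CD44 change by steps between groups, while SOX9 stays within a narrow band.

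KRT8 and KRT18, the keratin pair of the hepatocyte, were among the most abundant of the 10 transcripts in Huh7. KRT18 was at 1850 and 1632 CPM in Huh7 parental cells, 1912 and 1560 in Huh7 DMSO, 432 and 918 in Huh7-IR and 908 and 1489 in Huh7-CR. Both Huh7-IR libraries and both Huh7-CR libraries lay below every parental and DMSO library. The fall was 1.46 ± 0.30 (SE) on the log2 scale in Huh7-IR (limma, adjusted p = 0.00122), and 0.92 without Huh7-IR replicate 1. The difference in Huh7-CR was -0.58 ± 0.30 and was not called (limma, adjusted p = 0.141).

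KRT8 was at 1333 and 1198 CPM in Huh7 parental cells, 1356 and 1330 in Huh7 DMSO, 386 and 1041 in Huh7-IR and 710 and 1248 in Huh7-CR. The groups did not overlap in Huh7-IR, but its replicates lay further apart than the nearer of them did from the parental cells. The difference in Huh7-IR was -0.99 ± 0.36 (limma, adjusted p = 0.0313). It was -0.28 without Huh7-IR replicate 1, when the call was lost, and -1.71 without replicate 2. The call was also lost without either parental replicate (-0.92 and -1.07), after quantile normalization (-0.87, adjusted p = 0.0552), with no filter on low values (adjusted p = 0.0708) and in limma fits of only Huh7 (0.0954) or only the groups compared (0.121). In Hep3B KRT8 ranged from 649 to 923 CPM and KRT18 from 734 to 1143 CPM over all 8 libraries. Neither gene was called in Hep3B-IR or Hep3B-CR, where KRT18 differed from parental cells by 0.40 ± 0.30 and 0.50 ± 0.30.

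The mean change of the 2 resistant lines was compared between Huh7 and Hep3B in the same fit. For KRT18 this difference of differences was -1.47 ± 0.36 (limma, adjusted p = 0.00918). For KRT8 it was -0.98 ± 0.44 and was not called (limma, adjusted p = 0.110). Of all genes tested, 29.4% were called in this comparison.

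KRT7, the basic keratin of bile ducts, was close to the limit of detection in untreated Huh7 cells and present in every other group. Huh7 parental cells had 0.160 and 0.0402 CPM, which is 11 and 3 reads, and Huh7 DMSO cells had 0.0414 and 0.144 CPM. Huh7-IR had 8.01 and 21.0 CPM and Huh7-CR 16.3 and 9.79 CPM. Each resistant library lay far above each untreated one.

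The rise was 3.68 ± 0.42 in Huh7-IR (limma, adjusted p = 1.71e-05) and 3.64 ± 0.42 in Huh7-CR (limma, adjusted p = 3.34e-05). Because the untreated level lies near 0, these values depend on the pseudocount, and edgeR on the reads gave log2 ratios of 7.00 and 6.93. In Hep3B KRT7 was at 4.66 and 2.00 CPM in parental cells, 3.32 and 3.71 in DMSO, 7.68 and 3.88 in the IR line and 13.3 and 11.2 in the CR line. Hep3B-CR lay above all other Hep3B libraries, with a rise of 1.68 ± 0.42 (limma, adjusted p = 0.00742). That call was lost without parental replicate 2 (1.22) and without Hep3B-CR replicate 1 (1.57). Hep3B-IR overlapped the parental cells and was not called (0.66 ± 0.42).

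The change of KRT7 was larger in Huh7 than in Hep3B by 2.49 ± 0.51 (limma, adjusted p = 0.00323). The levels of KRT7 in Hep3B-CR and in both resistant Huh7 lines overlapped, at means of 12.3, 14.5 and 13.0 CPM. The annotation holds an antisense gene, KRT7-AS, over KRT7, and whether the counting used strand is not given in the sources used here, so reads of the 2 cannot be told apart.

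KRT19, the acidic bile duct keratin, had higher means in the 4 resistant lines than in their parental cells, but none of the differences was called. It was at 107 and 90.3 CPM in Huh7 parental cells, 102 and 166 in Huh7 DMSO, 109 and 212 in Huh7-IR and 144 and 197 in Huh7-CR. In Hep3B it was at 141 and 134 CPM in parental cells, 150 and 139 in DMSO, 298 and 191 in the IR line and 212 and 187 in the CR line. Every resistant library lay above both parental libraries of its line.

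The differences of KRT19 were 0.63 ± 0.31 in Huh7-IR (limma, adjusted p = 0.0993) and 0.77 ± 0.31 in Huh7-CR (0.0626). For Hep3B they were 0.79 ± 0.31 in the IR line (0.0677) and 0.53 ± 0.31 in the CR line (0.191). The value in Huh7-IR was 1.10 and called without Huh7-IR replicate 1, and 0.15 without replicate 2. That in Hep3B-IR was 0.47 without Hep3B-IR replicate 1, and 1.11 and called without replicate 2. Against DMSO cells it was 0.22 in Huh7-IR, and DESeq2 called KRT19 in Hep3B-IR. With the mean of both resistant lines, KRT19 was called higher in Huh7 (0.70 ± 0.27, limma, adjusted p = 0.0408) and not in Hep3B (0.66 ± 0.27, adjusted p = 0.0654). The changes of the lines differed by 0.03 ± 0.38.

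KRT23 fell in all 4 resistant lines, from very different starting levels. In Hep3B it was at 478 and 483 CPM in parental cells, 445 and 392 in DMSO, 113 and 258 in the IR line and 68.7 and 75.6 in the CR line. The 4 groups did not overlap. In Huh7 it was at 7.57 and 21.6 CPM in parental cells, 8.79 and 16.1 in DMSO, 0.332 and 0.236 in Huh7-IR and 0.417 and 0.327 in Huh7-CR, so that the resistant libraries lay below all untreated ones.

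KRT23 differed from parental cells by -3.44 ± 0.43 in Huh7-IR (limma, adjusted p = 3.28e-05) and -3.34 ± 0.43 in Huh7-CR (7.34e-05). For Hep3B the values were -1.49 ± 0.43 in the IR line (0.0186) and -2.72 ± 0.43 in the CR line (0.000417). In Hep3B-IR the call was lost without parental replicate 1 (-1.50), parental replicate 2 (-1.48) or Hep3B-IR replicate 1 (-0.89). The difference between lines was -1.29 ± 0.52 and was not called (limma, adjusted p = 0.0802). On the reads, where a low level weighs like a high one, it was -3.51 by edgeR (adjusted p = 0.00207), so whether the fall differed between Huh7 and Hep3B depends on the scale. Without Huh7 parental replicate 1 or Hep3B-IR replicate 1 it was called on the log2(CPM + 1) scale too (-1.99 and -1.59), and without Huh7 parental replicate 2 it was -0.59. With a pseudocount of 4 CPM it was 0.078.

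Divided by transcript length, KRT8 and KRT18 together made up most of the keratin transcripts in every library. KRT18 was 60.8% ± 0.4 (SD, n = 2) of the summed keratin level of 55 genes in Huh7 parental cells, with 40.1% ± 5.5 in the IR line and 53.1% ± 0.7 in the CR line. In Hep3B it was 42.5% ± 0.3 in parental cells and 47.7% ± 0.9 in Hep3B-CR. The sum itself was 2144 and 1907 CPM per kb in Huh7 parental cells, and 845 and 1478 CPM per kb in Huh7-IR.

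The share of KRT19 was 3.5% ± 0.1 in Huh7 parental cells, 9.8% ± 0.7 in the IR line and 7.8% ± 0.9 in the CR line, without overlap between these groups and the parental cells. In Hep3B it was 8.0% ± 0.1 in parental cells, 11.1% ± 2.4 in Hep3B-IR and 9.1% ± 0.4 in Hep3B-CR. KRT23 made up 17.5% ± 0.6 of the keratin level in Hep3B parental cells, 5.5% ± 3.5 in Hep3B-IR and 2.1% ± 0.4 in Hep3B-CR, and at most 0.5% in any Huh7 library. KRT7 stayed under 1% in each of the 16 libraries. The ratio of KRT8 to KRT18 per kb lay between 0.56 and 0.90, at 0.57 and 0.58 in Huh7 parental cells and 0.71 and 0.90 in Huh7-IR. These shares are a description with 2 libraries a group and no test.

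**Figure D3:**
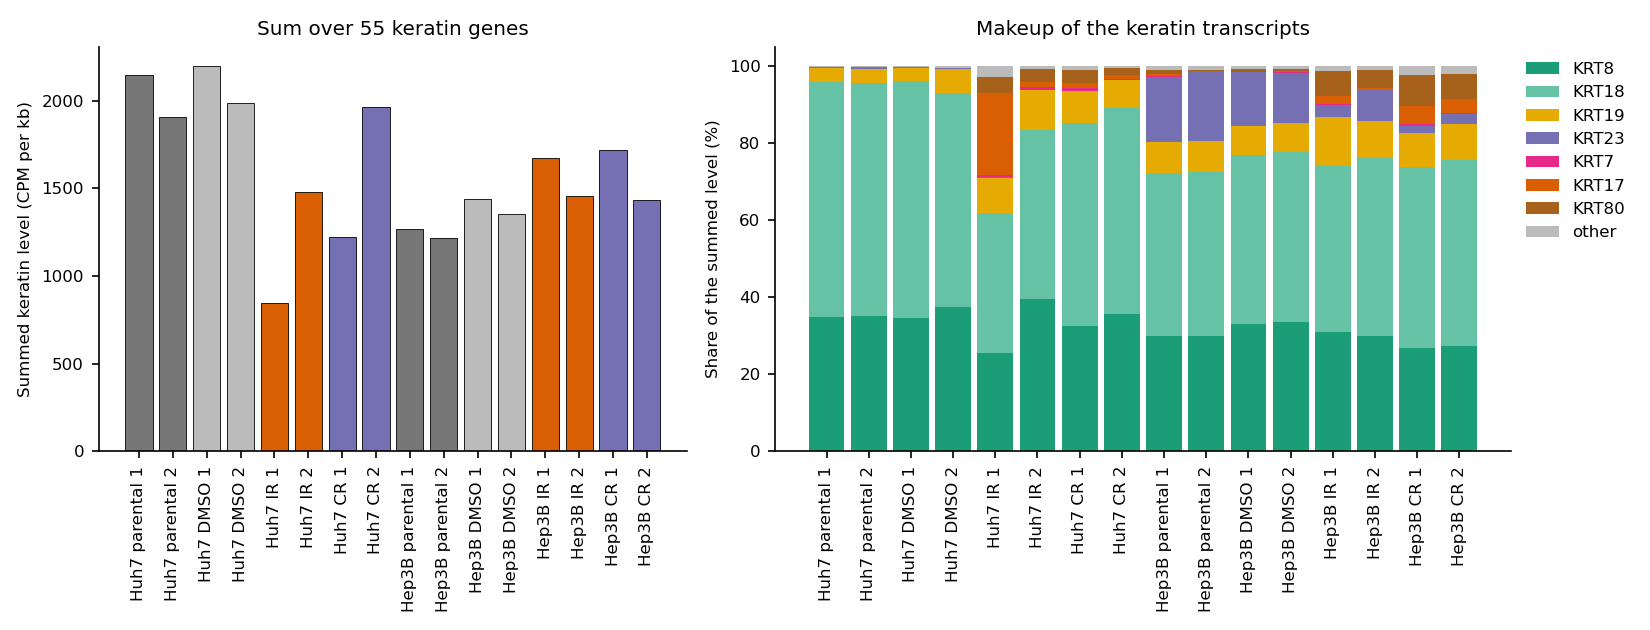
Left, summed level of 55 keratin genes in CPM per kb of transcript for each library, colored by group as before. Right, share of KRT8, KRT18, KRT19, KRT23, KRT7, KRT17, KRT80 and all other keratins in that sum. KRT23 is visible only in Hep3B and shrinks in the resistant lines, and KRT17 and KRT80 appear in the resistant lines, with 21.2% KRT17 in Huh7-IR replicate 1.

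KRT80 was called higher in all 4 resistant lines, and KRT17 in all but Hep3B-IR. They are among 8 of 50 other keratin genes that passed the filter on low values. KRT14, KRT16, KRT81 and KRT86 passed only through the resistant libraries, with at most 0.156 CPM in any untreated one, so that they could differ in 1 direction only and a count over the 8 is not given as a result. KRT80, a basic keratin of many epithelia, was at 0.189 and 0.0268 CPM in Huh7 parental cells, 142 and 187 in Huh7-IR and 159 and 141 in Huh7-CR. In Hep3B it was at 53.5 and 19.3 CPM in parental cells, 418 and 250 in the IR line and 533 and 349 in the CR line. The rise of KRT80 was 7.21 and 7.09 in the IR and CR lines of Huh7 and 3.29 and 3.70 in those of Hep3B.

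KRT17, an acidic keratin of basal and wounded epithelium, was at 1.35 and 0.0268 CPM in Huh7 parental cells, 272 and 30.2 in Huh7-IR and 21.3 and 25.5 in Huh7-CR. It rose by 5.89 and 3.97 in these lines and by 4.07 in Hep3B-CR, where it was at 125 and 78.9 CPM. The replicates of Huh7-IR thus differed widely in this gene, as they did in KRT8 and KRT18. The hair keratin KRT86 and its relative KRT81 passed the filter only through the resistant libraries, so a rise was the only change they could show. KRT86 differed by 1.28, 1.12, 1.46 and 3.32 in the 4 lines, and KRT81 by 3.97 in Hep3B-CR, at 17.6 and 12.9 CPM. KRT81 and KRT86 are close copies of each other, so their split is uncertain. The other keratins together were 28.3% and 5.4% of the keratin level in the Huh7-IR libraries and a mean of 13.5% ± 2.2 (SD, n = 2) in Hep3B-CR, against 0.3% in both Huh7 parental libraries and 2.5% and 1.5% in those of Hep3B.

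PROM1, the surface protein CD133 of cell protrusions, had higher means in all 4 resistant lines. It was at 105 and 121 CPM in Huh7 parental cells, 317 and 470 in Huh7-IR and 530 and 623 in Huh7-CR. In Hep3B it was at 773 and 722 CPM in parental cells, 2281 and 1654 in the IR line and 1028 and 780 in the CR line. No resistant group overlapped its parental cells.

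The rise was 1.77 ± 0.23 in Huh7-IR (limma, adjusted p = 5.38e-05), 2.34 ± 0.23 in Huh7-CR (1.17e-05) and 1.38 ± 0.23 in Hep3B-IR (0.000862). In Hep3B-CR the difference was 0.26 ± 0.23 and was not called (0.410). Hep3B-IR was higher than Hep3B-CR by 1.12 ± 0.23 (limma, adjusted p = 0.00897). This call was lost without Hep3B-IR replicate 1 (0.89) and without Hep3B-CR replicate 2 (0.92).

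The DMSO cells differed from parental cells in opposite directions in the 2 lines. PROM1 was at 303 and 211 CPM in Huh7 DMSO and at 476 and 424 CPM in Hep3B DMSO, above and below their parental cells without overlap. The difference was 1.16 ± 0.23 in Huh7 (limma, adjusted p = 0.0190) and -0.73 ± 0.23 in Hep3B (adjusted p = 0.159). The call in Huh7 was lost without parental replicate 1 (1.06) or parental replicate 2 (1.27) and in limma fits of only Huh7 or only the groups compared. Few genes of any kind were called there, 45 of 14151 in the fit of only Huh7 and 0 of 13119 in that of only the groups compared. In the fit of all groups, 4.83% of all genes were called between DMSO and parental cells in Huh7 and 1.58% in Hep3B. Of the 10 genes limma called PROM1 alone in Huh7. The difference of CD44 in Huh7 DMSO cells was -1.80 (limma, adjusted p = 0.127) and was called by edgeR and DESeq2. That of EPCAM was 0.94 (limma, adjusted p = 0.0789) and was called by DESeq2. In Hep3B none of the 10 was called by limma, edgeR or DESeq2 in the fits of all groups, and PROM1 alone passed at an unadjusted p under 0.05. Limma fits of only the groups compared (adjusted p = 0.0109) and of only Hep3B (0.0468) called PROM1 lower there.

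The comparison between lines depended on the control for PROM1. Against parental cells its mean change was larger in Huh7 than in Hep3B by 1.24 ± 0.29 (limma, adjusted p = 0.00635). Against DMSO cells the same difference was -0.66 (adjusted p = 0.0982). The rise against DMSO cells was 0.61 and 1.18 in the IR and CR lines of Huh7 and 2.11 and 0.99 in those of Hep3B, and all 4 were called.

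CD44, the hyaluronan receptor, rose in both resistant Huh7 lines and had few reads in Hep3B. It was at 14.6 and 1.41 CPM in Huh7 parental cells, 1.20 and 0.417 in Huh7 DMSO, 303 and 135 in Huh7-IR and 197 and 90.9 in Huh7-CR. All 4 resistant libraries lay above all 4 untreated ones. The rise was 5.05 ± 0.67 in Huh7-IR (limma, adjusted p = 5.28e-05) and 4.46 ± 0.67 in Huh7-CR (0.000238).

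In Hep3B the reads of CD44 were few enough to list. Parental cells had 0 and 3 reads, DMSO cells 3 and 1, Hep3B-IR 26 and 20 and Hep3B-CR 46 and 32. The resistant libraries lay above all untreated ones, yet the highest level, in Hep3B-CR, was 0.609 CPM. The differences of 0.37 ± 0.67 and 0.66 ± 0.67 were not called. On the reads, edgeR called neither (adjusted p = 0.153 and 0.0517) and DESeq2 called both higher (adjusted p = 0.0145 and 0.00162), and no fold is given against a parental level at the limit of 3 reads.

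The change of CD44 was larger in Huh7 than in Hep3B by 4.24 ± 0.82 (limma, adjusted p = 0.00213). Without Huh7 parental replicate 2 it was 2.89, and against DMSO cells 6.05. On the reads, where the few counts of Hep3B give a ratio as large as that of Huh7, the difference was 0.15 by edgeR (adjusted p = 1.00), so that the comparison between lines depends on the scale. Between the parental cells, Huh7 was higher by 2.59 ± 0.67 (limma, adjusted p = 0.00625), and by 1.24 without Huh7 parental replicate 1, when the call was lost, and by 3.94 without replicate 2.

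CD24, a small glycoprotein anchored in the membrane, was at 1154 and 1401 CPM in Hep3B parental cells, 1216 and 1112 in Hep3B DMSO, 1317 and 1193 in the IR line and 507 and 464 in the CR line. Hep3B-CR lay below every other group of either line. The fall was 1.39 ± 0.20 (limma, adjusted p = 0.000225), and Hep3B-IR was higher than Hep3B-CR by 1.37 ± 0.20 (adjusted p = 0.000996). In Huh7 CD24 was at 1325 and 1640 CPM in parental cells, 1110 and 1132 in Huh7-IR and 843 and 1161 in Huh7-CR. The difference of -0.57 ± 0.20 in Huh7-CR (limma, adjusted p = 0.0350) fell just short of the fold. It was called without Huh7 parental replicate 1 (-0.73) and without Huh7-CR replicate 2 (-0.81), and was -0.42 without parental replicate 2 and -0.34 without Huh7-CR replicate 1. In Huh7-IR the difference was -0.39 ± 0.20 (limma, adjusted p = 0.106). CD24 was called lower in both resistant Huh7 lines by edgeR (-0.61 in IR and -0.67 in CR), DESeq2 (-0.62 and -0.66) and limma after TMM scaling (-0.59 and -0.67), while quantile normalization gave -0.17 and -0.47 without a call.

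EPCAM, an epithelial adhesion molecule, differed more between the lines than between the groups within a line. It was between 495 and 672 CPM in the 8 Hep3B libraries and between 21.6 and 117 CPM in those of Huh7. Within Huh7 it was at 50.7 and 53.8 CPM in parental cells, 87.1 and 117 in DMSO, 21.6 and 51.7 in Huh7-IR and 29.9 and 36.2 in Huh7-CR. The differences from parental cells were -0.63 ± 0.29 (limma, adjusted p = 0.0814) in Huh7-IR and -0.65 ± 0.29 (0.0901) in Huh7-CR. With the mean of both resistant Huh7 lines EPCAM was called lower (-0.64 ± 0.25, limma, adjusted p = 0.0454). The difference in Huh7-IR was -0.01 without Huh7-IR replicate 1, and -1.24 and called without replicate 2. DESeq2 called EPCAM lower in both lines (-0.72 and -0.75) and edgeR in neither (adjusted p = 0.0692 and 0.0644). Against DMSO cells the differences were -1.56 and -1.59 and were called.

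SOX9, the ductal transcription factor, had the smallest ratio of the highest to the lowest of the 16 libraries among the 10 genes. It lay between 65.4 and 110 CPM, a ratio of 1.68. The differences of the IR and CR lines were 0.26 ± 0.17 and 0.19 ± 0.17 for Huh7 and -0.02 ± 0.17 and -0.33 ± 0.17 for Hep3B, and none was called (limma, adjusted p between 0.155 and 0.963). Group means of SOX9 overlapped with their neighbors in order of level in every step but that from Huh7 parental to Huh7 DMSO cells.

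The IR and CR lines were also compared with each other. In Huh7 none of the 10 genes was called by limma, where 13.7% of all genes were. With an unadjusted p under 0.05 only KRT18 passed (-0.88 ± 0.30, limma, adjusted p = 0.0616), edgeR called none, and DESeq2 called KRT18 and PROM1. The values hung on the Huh7-IR replicates, since without replicate 2 the differences of KRT8, KRT18 and PROM1 were called at -1.28, -1.43 and -0.86, and EPCAM was called at 0.64 without replicate 1 and at -0.59 without replicate 2. In Hep3B CD24 and PROM1 were called, where 11.7% of all genes were. KRT23 was at 1.23 ± 0.43 (limma, adjusted p = 0.0756) between Hep3B-IR and Hep3B-CR, and was called at 1.83 without Hep3B-IR replicate 1.

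Between the parental cells of the lines, 7 of the 10 genes were called, where 42.6% of all genes were. KRT8 (0.93 ± 0.36), KRT18 (1.22 ± 0.30) and CD44 were higher in Huh7 parental cells. KRT7 (-1.91 ± 0.42), KRT23 (-5.11 ± 0.43), PROM1 (-2.72 ± 0.23) and EPCAM (-3.38 ± 0.29) were higher in Hep3B. KRT8 passed narrowly (limma, adjusted p = 0.0466), and the call was lost without any of the 4 parental libraries, at 0.85 to 1.01. It was also lost after quantile normalization (adjusted p = 0.0619), with a pseudocount of 4 CPM (0.0522), with no filter (0.103) and with the replicate number as a block. KRT19, SOX9 and CD24 were not called.

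Genes around these 10 were taken from lists of hepatocyte, ductal, progenitor, filament, Notch and hyaluronan genes, and the names given for small counts were read off after the values were seen. Most markers of differentiated hepatocytes were lower in every resistant line. Of 23 tested, 20 were called lower in Huh7-IR and 18 in Huh7-CR. For Hep3B 13 were lower in the IR line and 17 in the CR line, and the only call higher was SERPINA1 in Hep3B-IR. Of all genes, 17.8% and 13.6% were called lower in the IR and CR lines of Huh7 and 11.4% and 12.3% in those of Hep3B. The median difference of the list was -4.62 and -2.65 in the IR and CR lines of Huh7 and -1.96 and -1.83 in those of Hep3B, beside 0.19, 0.07, 0.06 and 0.11 for all genes, and medians of the other lists are given in the same order. CLDN4, NCAM1, PRPH, SYNC, NOTCH4, HEY2, CEMIP, TNFAIP6, ACTA2 and ITGAM of these lists passed the filter only through the resistant libraries, as did 865 of all 15019 genes. Higher calls of these list genes add little to the counts given below. MTTP, which loads lipoproteins, was at 277 and 307 CPM in Huh7 parental cells and at 0.249 and 0.279 CPM in Huh7-IR. AHSG, a secreted liver glycoprotein, was at 387 and 773 CPM in Hep3B parental cells and at 11.9 and 91.4 CPM in Hep3B-CR.

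Ductal markers were called in both directions. Of 21 tested, 5 were called higher (ONECUT2, SLC4A2, DCDC2, ITGB4 and LAMB3) and 3 lower (ONECUT1, SPP1 and BICC1) in Huh7-IR. Huh7-CR had 4 higher (DCDC2, ITGB4, ITGB6 and LAMB3) and 4 lower, among them ONECUT1, SPP1 and BICC1. For Hep3B the IR line had 9 higher and 0 lower and the CR line 7 higher and 2 lower (ONECUT1 and ELF3), with medians of 0.30, 0.40, 0.82 and 0.13. Beside these, 31.1%, 20.9%, 15.7% and 20.0% of all genes were called higher and 17.8%, 13.6%, 11.4% and 12.3% lower, in the same order. The integrin subunit ITGB4 rose from 0.422 and 0.295 CPM in Huh7 parental cells to 17.8 and 17.2 in Huh7-IR, and ITGB6 rose from 2.17 and 0.760 CPM in Hep3B parental cells to 24.5 and 11.8 in Hep3B-IR. Osteopontin (SPP1) fell from 258 and 343 CPM in Huh7 parental cells to 1.91 and 2.60 in Huh7-IR. LAMB3, a laminin chain, rose in all 4 lines, by 1.74, 2.21, 2.39 and 3.25, and was picked after its values were seen.

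Other progenitor and fetal liver markers were called lower more often than higher, but with nearly equal counts and a median near that of all genes in Huh7-CR. Of 22 tested, 4 were called higher (ICAM1, CD9, ANPEP and SOX4) and 9 lower in Huh7-IR. Huh7-CR had 3 higher (NCAM1, CD9 and SOX4) and 4 lower (AFP, GPC3, FGF19 and ALDH1A1). In Hep3B, the IR line had 1 higher (SOX4) and 8 lower and the CR line 0 higher and 10 lower, with medians of -0.24, 0.07, -0.49 and -0.92. The shares of all genes were 31.1%, 20.9%, 15.7% and 20.0% higher and 17.8%, 13.6%, 11.4% and 12.3% lower, in the same order. AFP, the fetal serum protein, was at 3549 and 6269 CPM in Huh7 parental cells and at 3.12 and 2.79 CPM in Huh7-IR, and AFP fell by 1.74 in Hep3B-IR and fell by 5.03 in Hep3B-CR. CD9, a tetraspanin, rose by 1.88 in Huh7-IR and 2.30 in Huh7-CR, but it was also higher in Huh7 DMSO cells (52.0 and 91.7 CPM) than in parental cells (22.3 and 12.7 CPM).

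Of 17 genes tested for proteins that anchor keratin filaments, 7 were called higher and 0 lower in Huh7-IR, where 31.1% and 17.8% of all genes were. Huh7-CR had 2 higher (JUP and DST) and 1 lower (TRIM21), against 20.9% and 13.6%. The IR line of Hep3B had 5 higher (DSG2, DSC2, DSC3, DST and LGALS3) and 0 lower and the CR line 6 higher and 1 lower (PNN), with medians of 0.39, 0.27, 0.34 and 0.55. Plakoglobin (JUP), a desmosome protein, rose by 2.13 in Huh7-IR and 2.35 in Huh7-CR, from 36.2 and 20.2 CPM in parental cells. It was at 54.98 and 130 CPM in Huh7 DMSO cells, and against these the differences were 0.52 and 0.74 and were not called. Galectin-3 (LGALS3), a lectin that binds sugars at the cell surface, rose by 1.16 in Hep3B-IR and 2.03 in Hep3B-CR.

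Among the other intermediate filament genes, 4 of 9 were called higher (VIM, SYNC, LMNA and BFSP1) in both resistant Huh7 lines, with 1 lower (LMNB1) in Huh7-IR and 2 lower (LMNB1 and SYNM) in Huh7-CR. In Hep3B, the IR line had 3 higher (VIM, PRPH and SYNM) and 3 lower (NES, LMNB1 and LMNB2) and the CR line 2 higher (VIM and PRPH) and 3 lower (NES, SYNM and LMNB1), and the medians were 0.26, 0.18, 0.32 and 0.20. Over all genes, 31.1%, 20.9%, 15.7% and 20.0% were called higher and 17.8%, 13.6%, 11.4% and 12.3% lower, in the same order. Vimentin (VIM), the filament of mesenchymal cells, which was picked after its values were seen, rose in all 4 lines by 1.38, 1.13, 0.73 and 1.14. BFSP1, a lens filament protein, rose by 2.62 and 1.87 in the Huh7 lines, and PRPH, a filament of neurons, rose by 0.60 and 2.69 in the Hep3B lines. PRPH was at only 0.535 and 0.640 CPM in Hep3B-IR. SYNC and PRPH passed the filter only through the resistant libraries, so their higher calls add little to the counts of this list. Lamin B1 (LMNB1), of the nuclear envelope, fell by 1.98, 1.06, 1.00 and 1.55 in the 4 lines, and nestin (NES) fell by 1.36 and 1.99 in Hep3B.

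The Notch pathway, which directs bile duct fate in the liver, had 11 of 26 genes called higher and 4 lower (DLL4, HES1, RBPJ and APH1A) in Huh7-IR, and 6 higher and 4 lower (NOTCH1, DLL4, RBPJ and MAML3) in Huh7-CR. The IR line of Hep3B had 4 higher, among them HEY1, MAML2 and LFNG, and 4 lower (NOTCH1, JAG2, NCSTN and APH1A) and the CR line 9 higher and 1 lower (ADAM10), and the medians were 0.33, 0.24, 0.39 and 0.27. In the same order, 31.1%, 20.9%, 15.7% and 20.0% of all genes were called higher and 17.8%, 13.6%, 11.4% and 12.3% lower. The coactivator MAML2 rose by 4.39, 4.31, 1.79 and 1.57 in the 4 lines. The DNA-binding factor RBPJ fell by 1.39 and 1.19 in Huh7, and the target gene HEY1 rose by 1.91 and 2.79 in Hep3B.

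Hyaluronan genes and partners of CD44 had 4 of 16 called higher (CEMIP, TNFAIP6, EZR and RBFOX2) in both resistant Huh7 lines. Lower calls numbered 4 in Huh7-IR (SPP1, HMMR, MMP14 and ESRP2) and 4 in Huh7-CR (SPP1, HYAL2, MMP14 and ESRP2). In Hep3B, the IR line had 4 higher (HAS2, HAS3, CEMIP and MMP14), the CR line 3 (HAS2, MSN and RBFOX2), and both had 3 lower (HMMR, HYAL1 and HYAL2), and the medians were 0.12, 0.11, 0.28 and 0.13. Among all genes, 31.1%, 20.9%, 15.7% and 20.0% were called higher and 17.8%, 13.6%, 11.4% and 12.3% lower, in the same order. CEMIP and TNFAIP6 passed the filter only through the resistant libraries, so their higher calls add little to these counts. CEMIP, which takes part in hyaluronan breakdown, rose by 2.66 in Huh7-IR and 4.92 in Huh7-CR, the hyaluronan synthase HAS2 rose by 2.36 and 1.61 in Hep3B, and the hyaluronidase HYAL2 fell by 1.49 and 1.86 in Hep3B.

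Markers of cells that these cultures should not hold were checked beside the results. Of 9 fibroblast and stellate markers tested, 6 were called higher and 2 lower in both Huh7-IR and Huh7-CR, with PDGFRA and LUM as the lower ones. Hep3B-IR had 2 higher (COL1A1 and LRAT) and 1 lower (PDGFRB), and Hep3B-CR 2 higher (COL1A1 and RGS5) and 1 lower (PDGFRA), and the medians were 0.98, 1.5, 0.03 and -0.02. The corresponding shares of all genes were 31.1%, 20.9%, 15.7% and 20.0% higher and 17.8%, 13.6%, 11.4% and 12.3% lower. The summed level of the list of 10 was 399.9 to 534 CPM in Huh7 parental cells, 335 to 358 in Huh7-IR and 527 to 839.8 in Huh7-CR. It was 69.7 to 75.2 in Hep3B parental cells, 82.2 to 114 in Hep3B-IR and 83.6 to 105 in Hep3B-CR. COL1A2 rose by 5.20 and 5.93 in Huh7 and COL1A1 by 4.69 and 5.69 in Hep3B, while PDGFRA fell by 5.46 and 3.11 in Huh7.

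Of 6 immune markers tested, 1 was called higher (CD68) and 4 lower (PTPRC, CD3D, CD14 and LYZ) in Huh7-IR, and 2 higher (CD68 and ITGAM) and 1 lower (PTPRC) in Huh7-CR. CD68 was the only call in either resistant Hep3B line, and it rose in the 4 lines by 3.62, 3.32, 2.19 and 1.78. Its level was 7.46 and 10.3 CPM in Hep3B parental cells and 18.2 and 32.9 in Hep3B DMSO cells. Hep3B-IR, at 37.1 and 51.2 CPM, lay above the DMSO cells, and Hep3B-CR, at 38.6 and 27.6, overlapped them. The medians of the 6 were -0.93, 0.23, 0.0022 and -0.0049. Of all genes, 31.1%, 20.9%, 15.7% and 20.0% were called higher and 17.8%, 13.6%, 11.4% and 12.3% lower, in the same order. ITGAM passed the filter only through the resistant libraries, so its higher call adds little. The summed level of the list of 12 was 39.2 to 45.6 CPM in Huh7 parental cells and 31.2 to 34.4 in Huh7 DMSO cells. In Huh7-IR it was 49.0 to 80.8 and in Huh7-CR 82.0 to 116. It was 11.6 to 22.4 in Hep3B parental cells and 50.5 to 69.6 in Hep3B DMSO cells. In Hep3B-IR it was 40.7 to 55.8 and in Hep3B-CR 32.5 to 41.8, so that neither lay above the DMSO cells. PTPRC, which defines leukocytes, was at 1.32 CPM or less in every library and the T cell gene CD3E at 4 reads or fewer.

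Of 2 endothelial markers tested, PECAM1 was called lower in both Huh7 lines (-1.09 and -0.95), LYVE1 higher in Huh7-CR (2.84, named after its values were seen) and neither in Hep3B, with medians of -0.70, 0.94, 0.13 and 0.07. All genes had shares of 31.1%, 20.9%, 15.7% and 20.0% called higher and 17.8%, 13.6%, 11.4% and 12.3% called lower, in the same order. The summed level of the list of 10 was at most 2.31 CPM in Huh7 parental cells, 0.922 in the IR line and 15.7 in the CR line. It was at most 0.592 in Hep3B parental cells, 1.07 in Hep3B-IR and 0.808 in Hep3B-CR. The endothelial cadherin CDH5 was at 0 or 1 read in the parental and resistant libraries and at 104 reads in Huh7 DMSO replicate 2. The part of any of these markers in the results on the 10 genes was not tested.

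Over the 8 group means, the genes with the pattern most like those of 9 of the 10 were described by Pearson's r of log2(CPM + 1). The values were 0.997 for PRNP with KRT7, 0.995 for NIM1K with CD44, 0.994 for PNMA3 with KRT23, 0.996 for KYAT3 with EPCAM and 0.980 for MACO1 with PROM1. For KRT18 the most alike of all genes was KRT8, its filament partner, at 0.964. The corresponding values were 0.967 for HPGD with KRT8, 0.966 for LUC7L3 with SOX9 and 0.959 for NFKBIZ with CD24. The 8 points come from 2 cell lines and each value is the highest among 15019 genes, so these are descriptions with no test.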

How the data were processed

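The authors sequenced poly(A) RNA as 16 stranded libraries. Per their methods, reads were aligned with STAR to hg19, reads with a single hit were kept, and reads over RefSeq mRNAs were counted with QuasR. The deposited values are CPM, and the authors' methods name edgeR for their own comparisons and do not say whether its p was adjusted. The methods speak of triplicates, and the labels give 2 replicates a group, which were followed here. The deposited CPM gave whole reads in 100% of values (tolerance 0.05 reads) at 46613302 to 76860251 reads a library. Precision is limited by 2 libraries a group, and a limit of 3 reads covers counting error only.

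Gene identifiers were matched to RefSeq symbols (26111 of 26258). Genes were kept where 2 or more libraries reached 1 CPM (15019 genes), and their log2(CPM + 1) values were fitted with limma 3.58.1 (R 4.3.3) with a mean for each of the 8 groups and an intensity trend, and p-values were adjusted by Benjamini-Hochberg over all genes. Calls needed an adjusted p under 0.05 and 0.58 on the log2 scale, the fold of the study. All tests are two-sided. edgeR 4.0.16, DESeq2 1.42.0, other scalings, pseudocounts (0.25 and 4 CPM), filters, controls and leaving out each library were alternatives, and the fits were tested on simulated data. Levels between keratins were divided by the length of the canonical GENCODE transcript.

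The 10 genes and the lists were chosen with earlier results of these data known. Named from each list and line was the gene with the largest mean rise, and the one with the largest mean fall, among those called the same way in IR and CR. Other keratins were named where called the same way in IR and CR of a line, and the 2 genes most alike to each of the 10 were sought over the 8 group means, the first of which is given (that of KRT19 is not reported here). ALB and AFP served as cell checks.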

Additional observations from a re-analysis of the deposited data

Results flagged for a closer look

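The mean change of the IR and CR lines differed between Huh7 and Hep3B for 4 of the 10 genes by an interaction test in limma, where 29.4% of all genes were called. It was larger in Huh7 for KRT7 (2.49 on the log2 scale, SE 0.51), PROM1 (1.24, SE 0.29) and CD44 (4.24, SE 0.82), and lower in Huh7 for KRT18 (-1.47, SE 0.36). The difference of KRT7 and that of KRT18 were called under each of the 24 alternatives. That of PROM1 turned to -0.66 against DMSO cells, and that of CD44 was 0.15 by edgeR and 0.09 by DESeq2. Groups of 2 libraries were too small for a test of single outlying libraries.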

How the results depend on the processing

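The counts of called genes among the 10 stayed within 1.5 times under every alternative for Huh7-IR, Huh7-CR and Hep3B-CR against parental cells (6, 4 and 3 as reported), for the parental lines (7) and for the difference between lines (4). In Hep3B-IR the count was 2, and 4 by DESeq2 (CD44 and KRT19 added), with 1 to 3 when a library was left out. For Huh7 DMSO it was 1, and 2 by edgeR, 3 by DESeq2, 3 with unadjusted p, 0 in a fit of only the groups compared, 0 in a fit of only Huh7, and 0 to 2 when a library was left out. Among all genes, the Huh7 DMSO fit of only the groups compared called 0 and that of only Huh7 called 45. For Hep3B DMSO the count among the 10 was 0, and 1 (PROM1, lower) in the fit of only the groups, in that of only Hep3B and with unadjusted p. Between Huh7-IR and Huh7-CR it was 0, and 2 by DESeq2, 1 with unadjusted p and 0 to 4 when a library was left out. Between Hep3B-IR and Hep3B-CR it was 2, and 4 in the fit of only the groups, in that of only Hep3B and with unadjusted p, and 1 to 2 when a library was left out. Values with a call in either fit that turned were PROM1 between lines (-0.66 against DMSO cells), EPCAM between Huh7-IR and Huh7-CR (-0.59 without Huh7-IR replicate 2 and 0.64 without replicate 1) and CD9 in Huh7-IR (-0.092 against DMSO cells). Of 1700 values of the 10 genes under alternatives, 1604 kept their side of the threshold and 1542 also their direction, and 62 changed sign without a call in either fit.

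The main fit did not pair the samples by replicate number. The correlation of replicate differences over 28 pairs of groups ran from -0.22 to 0.44, so that some groups shared part of their replicate differences. With the replicate number as a block the counts were 6, 4, 2 and 3 in the resistant lines, 1 and 0 for DMSO, 0 and 2 between IR and CR, 6 between parental lines (KRT8 lost) and 4 between lines. The cause of these shifts was not tested. Few reads limited the comparison of CD44 in Hep3B, where the parental libraries held 0 and 3 reads of CD44 among 74283128 and 71089113 in all.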
